A study of Mus musculus with 4 samples.

Results

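The 10 genes described here are markers of hepatic stellate cells and of the myofibroblasts that stellate cells become: Pdgfra, Pdgfrb, Des, Acta2, Tagln, Reln, Rgs5, Dcn, Lum and Ecm1. They were taken by symbol from the 24346 gene symbols of the series, and all 10 were listed above 0 FPKM (sequenced fragments of a gene, scaled by its transcript length and by the depth of the library) in all 4 libraries. RNA was sequenced from whole liver of male ob/ob mice, an obese strain without functional leptin, and no lean or wild-type mice are among these 4 groups. From 6 weeks of age the mice were fed for 4 weeks either a regular chow diet (CD), the same diet with 0.01% 7-ketocholesterol (CD+7KC), a diet rich in cocoa butter and sucrose (WD), or that diet with 0.01% 7-ketocholesterol (WD+7KC). 7-Ketocholesterol (7KC) is an oxidized form of cholesterol, and 1% cholesterol was part of every diet, the chow included. Each group had 1 library, so no difference below has a replicate check and none has a p-value. How many mice went into a library is not given in the sources used here.

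Stellate cells lie between the hepatocytes and the sinusoidal endothelium, store vitamin A and wrap around the sinusoids as the pericytes of the liver. After injury they can turn into contractile myofibroblasts, driven in part by platelet-derived growth factor (PDGF), and deposit the fibrillar collagens and proteoglycans of a scar. Several of the 10 genes are also made by other liver cells: vascular smooth muscle also makes Acta2 and Tagln, portal fibroblasts make Dcn and Lum, and hepatocytes make Ecm1. In whole liver, fewer cells of a type and less RNA per cell cannot be told apart.

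By the steps between low FPKM values, the estimated depth of the libraries was 10900000 (CD), 11000000 (CD+7KC), 9390000 (WD) and 12100000 fragments (WD+7KC). Exact (Clopper-Pearson) 95% intervals of single ratios rest on the reads these depths imply, cover counting error only, and say nothing of the variation between mice. Summed over all genes, FPKM came to 715605 (CD), 696062 (CD+7KC), 699534 (WD) and 602059 (WD+7KC). Rescaling to equal sums therefore moved the median over all genes from 0.00 to 0.21 in WD+7KC relative to WD and from 0.00 to 0.20 in WD+7KC relative to CD+7KC, and by less than 0.1 in the other comparisons. Ratios and intervals of single genes are of FPKM values as deposited, whereas counts and medians over genes use log2 of FPKM + 0.1, which understates the change of low genes.

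The lowest value of 8 of the 10 genes was in CD+7KC, which was the lowest library for 22.6% of the 10686 genes that averaged at least 1 FPKM. The exceptions were Tagln, lowest in WD, and Rgs5, lowest in CD, and the same 8 genes were lowest in CD+7KC after rescaling to equal sums, where the share of all genes was 24.7%. None of the 10 was highest in CD+7KC. Dcn was the most abundant by mean FPKM, at 135, followed by Ecm1 at 54.8 and Tagln at 12.8, and Pdgfra was the least abundant at 1.18. The ratio of highest to lowest library ran from 1.13 for Reln and Ecm1 to 2.86 for Lum, so the genes differed far more from each other than any of them did between diets.

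**Figure D1:**
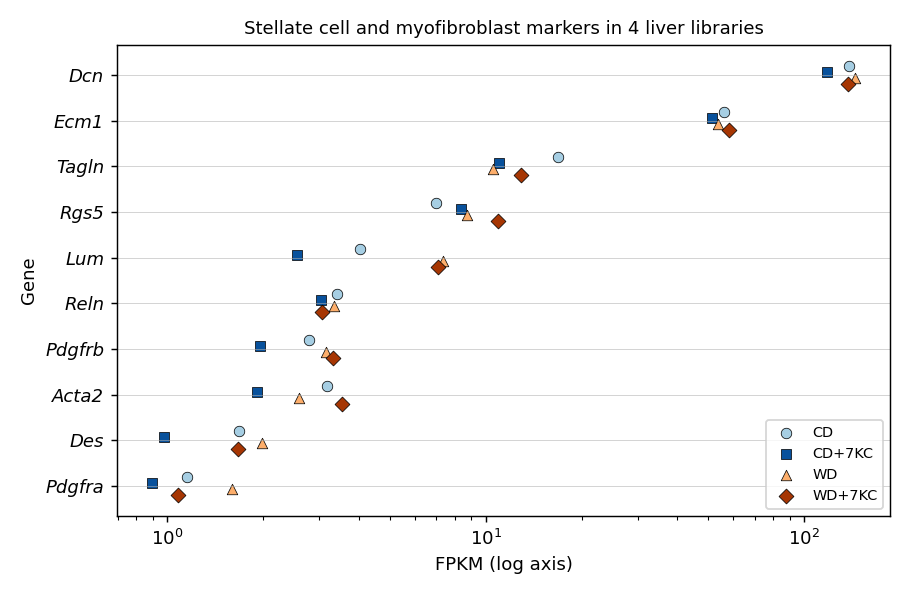
FPKM of each of the 10 marker genes (log axis) in the CD, CD+7KC, WD and WD+7KC libraries, 1 point per library, with genes ordered by mean FPKM. The CD+7KC square lies furthest left for 8 genes, and the libraries of Lum spread most, from 2.56 to 7.34 FPKM.

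Promoters are shown for the genes at the opposite ends of CD+7KC relative to CD, Des as the lowest and Rgs5 as the only one higher, and for Acta2, the standard marker of the myofibroblast state. The table of RefSeq promoters (GRCm38.p6) held 6 of the 10 genes, and the 250 bases before each start were searched on both strands. The motifs were the CArG box bound by serum response factor, exact or with 1 base off, the E box CANNTG bound by basic helix-loop-helix factors, the MCAT element CATTCC bound by TEAD factors, and the GC box GGGCGG bound by Sp factors. Capitals mark the matches, and no match printed here overlapped another.
Acta2, chr19:34255438-34255467, minus strand, CArG box with 1 base off: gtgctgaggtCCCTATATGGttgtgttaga
Acta2, chr19:34255388-34255417, minus strand, CArG box with 1 base off: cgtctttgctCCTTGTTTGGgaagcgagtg
Acta2, chr19:34255502-34255531, minus strand, MCAT element: gagcagaacagaGGAATGcagtggaagaga
Des, chr1:75360042-75360291, plus strand, E and GC boxes: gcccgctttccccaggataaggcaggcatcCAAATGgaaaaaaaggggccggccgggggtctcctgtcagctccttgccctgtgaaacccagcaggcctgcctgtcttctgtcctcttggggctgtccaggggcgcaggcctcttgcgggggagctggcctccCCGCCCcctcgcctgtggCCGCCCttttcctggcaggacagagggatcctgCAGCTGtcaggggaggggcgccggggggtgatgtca
Rgs5, chr1:169655251-169655500, plus strand, no match: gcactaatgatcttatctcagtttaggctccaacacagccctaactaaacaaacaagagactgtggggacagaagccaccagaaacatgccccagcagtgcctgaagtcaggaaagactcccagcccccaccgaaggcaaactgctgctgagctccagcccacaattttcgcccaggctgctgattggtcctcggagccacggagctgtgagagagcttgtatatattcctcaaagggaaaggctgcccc

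The Acta2 matches to the CArG box began 84 and 34 bases before the RefSeq start, and its MCAT element began 146 bases before it. GENCODE, used here for gene coordinates, starts Acta2 further upstream, at base 34255590 of the minus strand. The printed Acta2 stretches therefore lie before the RefSeq start but inside the GENCODE gene. A CArG box with 1 base off was held by 7.24% of all 32851 promoters and, of the 6 marker genes, by Acta2 alone, whereas the exact box was held by 1.47% of promoters and by none of the 6. The MCAT element was held by 12.6% of promoters and by Acta2 alone of the 6. E boxes, held by 66.2% of promoters, were found in 5 of the 6, and GC boxes, held by 32.7%, in Des, Ecm1 and Reln. The Des window held 2 of each. These are matches of letters and not shown to be bound, and the absence of a match in Rgs5 concerns these letters in this window only.

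The receptors for PDGF receive the main growth signal of stellate cells. Pdgfra, the alpha receptor (GRCm38 chr5:75152292-75198215), was listed at 1.16 (CD), 0.896 (CD+7KC), 1.59 (WD) and 1.08 FPKM (WD+7KC). It was lower with 7KC under both diets and highest in WD. Its WD+7KC to WD ratio was 0.680 (log2 -0.56, interval -0.998 to -0.12), which is the only interval among the 10 genes that lay wholly below 0 in that comparison, against 23.1% of the genes with a single RefSeq mRNA that, as all of the 10, averaged at least 1 FPKM, and its upper bound reached 0.10 after rescaling to equal sums. Under CD the ratio was 0.775 with an interval of -0.87 to 0.13 on the log2 scale. Pdgfrb, the beta receptor and the main mitogen receptor of activated stellate cells, was listed at 2.79 (CD), 1.96 (CD+7KC), 3.16 (WD) and 3.32 FPKM (WD+7KC). CD+7KC stood below the other libraries, among which the values were close. The CD+7KC to CD ratio of Pdgfrb was 0.704 (log2 -0.51, interval -0.87 to -0.15), and WD+7KC relative to WD gave 1.05 with an interval of -0.23 to 0.38.

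Of their ligands, Pdgfc had the order of Pdgfrb, from CD+7KC lowest to WD+7KC highest, and the others followed neither receptor. All 4 PDGF ligand genes were higher in WD than in CD and in WD+7KC than in WD, against 50.9% and 50.2% of all genes. After rescaling to equal sums those shares of all genes were 53.6% and 73.0%. The ligand medians were 0.37 and 0.32 on the log2 scale, with none past 2-fold, and 2 of the 4 averaged at least 1 FPKM. In CD+7KC relative to CD and in WD+7KC relative to CD+7KC 3 of the 4 were higher, with medians of 0.29 and 0.56. Of all genes, 49.3% and 50.2% were higher as deposited, and 57.6% and 68.4% after rescaling. Pdgfa, the alpha-receptor ligand, was listed at 4.14 (CD), 5.46 (CD+7KC), 5.33 (WD) and 6.78 FPKM (WD+7KC). Pdgfb, which binds both receptors, was listed at 0.596, 0.693, 0.809 and 1.29 FPKM in the same order. Both were thus lowest in CD and highest in WD+7KC. Pdgfc was listed at 1.34, 1.20, 1.79 and 2.21 FPKM and Pdgfd at 0.457, 0.740, 0.597 and 0.619 FPKM in that order of libraries.

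Of the filament and contractile genes, Des encodes desmin, the intermediate filament by which rodent stellate cells are usually stained (chr1:75360329-75368579). Des was listed at 1.68 (CD), 0.980 (CD+7KC), 1.99 (WD) and 1.66 FPKM (WD+7KC). Its CD+7KC value was the lowest and the order was the same as for Pdgfra. The CD+7KC to CD ratio was 0.583 (log2 -0.78), the smallest ratio of the 10 genes, on an estimated 30.5 reads against 51.8, and its interval of -1.47 to -0.11 was correspondingly wide. The WD+7KC to WD ratio was 0.835 with an interval of -0.83 to 0.31.

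Acta2 encodes smooth muscle alpha-actin, the actin of myofibroblast stress fibres (chr19:34241090-34255590). It was listed at 3.18 (CD), 1.91 (CD+7KC), 2.58 (WD) and 3.53 FPKM (WD+7KC), so the library with 7KC was the lower of the pair under CD and the higher under WD. The CD+7KC to CD ratio was 0.60 (log2 -0.74, interval -1.35 to -0.14). Under WD the ratio was 1.37 (log2 0.45), and its interval of -0.10 to 1.02 held 0 as deposited but ran from 0.12 to 1.23 after rescaling to equal sums. Reads were few, from an estimated 38.5 in CD+7KC to 78.5 in WD+7KC. Tagln encodes transgelin, an actin-binding protein of smooth muscle (chr9:45929619-45936058), and was listed at 16.8 (CD), 11.0 (CD+7KC), 10.6 (WD) and 12.9 FPKM (WD+7KC). CD alone stood high, and the other libraries lay close together. The CD+7KC to CD ratio of Tagln was 0.654 (log2 -0.61, interval -0.90 to -0.33) and the WD to CD ratio was 0.627 (log2 -0.67, interval -0.98 to -0.37). With 7KC under WD the ratio was 1.22, and its interval of -0.02 to 0.61 held 0 as deposited and ran from 0.19 to 0.82 with equal sums. Tagln exons share 108 bases, 5.43% of their length, with Pcsk7 on the other strand, which was listed at 8.26, 7.14, 6.54 and 6.94 FPKM in the order CD, CD+7KC, WD and WD+7KC. The kit keeps strand, but whether the counting used it is not given in the sources used here.

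Reln and Rgs5 stand for quiescent stellate cells and pericytes. Reln, which encodes the secreted glycoprotein reelin (chr5:21884454-22344702), was listed at 3.42 (CD), 3.04 (CD+7KC), 3.35 (WD) and 3.07 FPKM (WD+7KC). The values were nearly level, and all 4 intervals of its ratios held 0 as deposited. The log2 ratio of Reln was -0.17 under CD (interval -0.38 to 0.04) and -0.12 under WD (interval -0.34 to 0.09), and under WD it was above 0 after rescaling to equal sums, at 0.09 on the log2(FPKM + 0.1) scale. Rgs5, a regulator of G-protein signalling known from pericytes (chr1:169655501-169695813), was listed at 6.96 (CD), 8.35 (CD+7KC), 8.75 (WD) and 10.9 FPKM (WD+7KC). It was the only one of the 10 higher in CD+7KC than in CD, and it was higher with 7KC under both diets and with WD both with and without 7KC. Its 7KC ratios were 1.20 under CD and 1.25 under WD. All 4 of its intervals held 0 as deposited, but they were computed for its shortest RefSeq mRNA of 723 bases, which gives 39.7 to 69.3 reads, whereas the longest of 4096 bases would give 296 to 516.

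Of the matrix proteins, Dcn and Ecm1 were the most deeply sampled. Dcn encodes decorin, a small leucine-rich proteoglycan that binds collagen fibrils (chr10:97479609-97518143), and was listed at 139 (CD), 118 (CD+7KC), 145 (WD) and 137 FPKM (WD+7KC). CD+7KC was again lowest, by a small margin. With 2025 to 2591 estimated reads per library, the Dcn interval was narrow: the CD+7KC to CD ratio was 0.852 (log2 -0.23, interval -0.32 to -0.15) and the WD+7KC to WD ratio was 0.949 (log2 -0.08, interval -0.16 to 0.01), the latter turning to 0.14 (log2) after rescaling to equal sums.

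Lum encodes lumican, another small leucine-rich proteoglycan that binds collagen fibrils (chr10:97565128-97572703), and was listed at 4.03 (CD), 2.56 (CD+7KC), 7.34 (WD) and 7.06 FPKM (WD+7KC). Both WD libraries stood above both CD libraries, the widest separation by diet among the 10 genes. The WD to CD ratio of Lum was 1.82 (log2 0.87, interval 0.49 to 1.24) and the WD+7KC to CD+7KC ratio was 2.76 (log2 1.46, interval 1.05 to 1.90). With 7KC the ratio was 0.636 under CD (log2 -0.65, interval -1.13 to -0.18) and 0.963 under WD (log2 -0.05, interval -0.37 to 0.26). Dcn and Lum are neighbours, 47.0 kb apart with no annotated gene between them, and the next members of this proteoglycan cluster, Kera and Epyc, were listed at 0 in all 4 libraries. The WD to CD ratio of Dcn was 1.04.

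Ecm1 encodes extracellular matrix protein 1 (chr3:95734147-95739569) and was listed at 56.2 (CD), 51.4 (CD+7KC), 53.5 (WD) and 58.1 FPKM (WD+7KC). The libraries lay within 1.13-fold of each other. Its CD+7KC to CD ratio was 0.915 (log2 -0.13, interval -0.26 to -0.0002, which held 0 after rescaling to equal sums), and its WD+7KC to WD ratio was 1.09 (log2 0.12, interval -0.01 to 0.25).

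Across CD+7KC relative to CD, 9 of the 10 genes were lower, against 50.7% of the 15684 genes tested, and the median log2 fold change was -0.41 against 0.00 for all genes. None passed 2-fold, which 6.75% of all genes did in either direction. The intervals of 7 genes lay below 0 (Pdgfrb, Des, Acta2, Tagln, Dcn, Lum and Ecm1), or 6 after rescaling to equal sums, where the Ecm1 interval held 0. Among genes with a single RefSeq mRNA that averaged at least 1 FPKM, 17.0% had such an interval as deposited and 13.2% after rescaling. Summed over the 10 genes, FPKM was 235 (CD), 200 (CD+7KC), 238 (WD) and 239 (WD+7KC), sums of which Dcn and Ecm1 made up most.

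Across WD+7KC relative to WD, 5 of the 10 genes were higher and 5 lower, against 50.2% higher among the 15753 genes tested, and the median was 0.01. With equal sums the split was 8 against 2, beside 73.0% higher among all genes, with Reln, Dcn and Lum changing direction, and the median was 0.22 against 0.21 for all genes. After rescaling the intervals of 4 genes lay above 0 (Acta2, Tagln, Dcn and Ecm1), as did those of 39.2% of genes with a single mRNA and at least 1 FPKM on average. None of the 10 passed 2-fold under either scaling, whereas 9.00% of all genes did as deposited. Of all genes, 978 were above 2-fold and 440 below as deposited, and 1374 and 348 after rescaling. The sinusoidal and macrophage markers described below each differed more in this comparison than any of the 10.

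**Figure D2:**
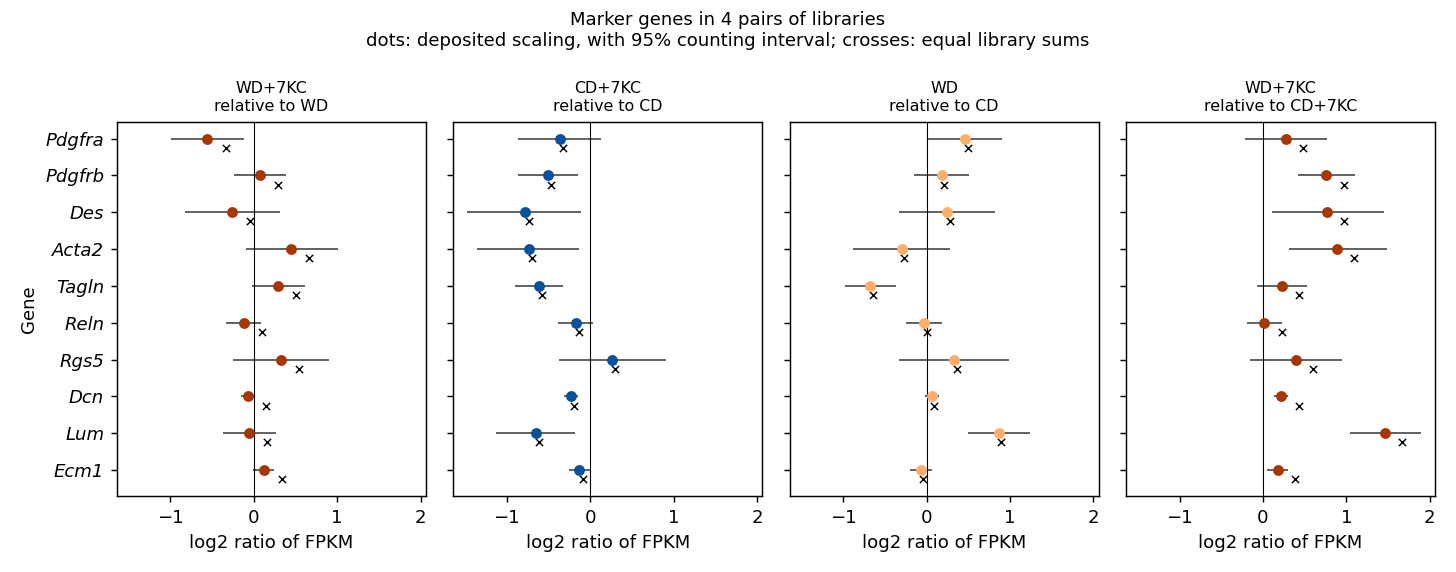
Log2 ratios of FPKM for the 10 marker genes in 4 pairs of libraries, with dots for the deposited scaling, bars for the exact 95% counting interval and crosses for ratios after rescaling to equal library sums. In CD+7KC relative to CD 9 dots lie left of 0, in WD+7KC relative to CD+7KC all 10 lie right of it, and the largest is Lum at 1.46.

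Without 7KC, 6 of the 10 genes were higher in WD than in CD and 4 were lower (median 0.12), against 50.9% higher among 15597 genes tested. None passed 2-fold, against 9.69% of all genes. The intervals of Lum and Pdgfra lay above 0, as those of 21.8% of genes with a single mRNA and at least 1 FPKM on average did, and that of Tagln lay below, against 25.1%. With equal sums Reln turned, giving 7 higher and 3 lower, against 53.6% higher among all genes.

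With 7KC in both diets, all 10 genes were higher in WD+7KC than in CD+7KC, against 50.2% of 15898 genes tested, with a median of 0.32. After rescaling the share of all genes was 68.4% and the median of the 10 was 0.52, against 0.20 for all genes. Lum alone passed 2-fold as deposited, against 8.01% of all genes above 2-fold, and Acta2 passed as well after rescaling, at 1.06 on the log2(FPKM + 0.1) scale, against 11.0%. The intervals of 6 genes lay above 0 (Pdgfrb, Des, Acta2, Dcn, Lum and Ecm1), against 24.4% of genes with a single mRNA and at least 1 FPKM on average, and those of 9 genes after rescaling, against 42.7%. This comparison and CD+7KC relative to CD share the CD+7KC library, so that a low value in that library enters both. Of all genes, 1274 were above 2-fold and 733 below as deposited, and 1755 and 584 after rescaling.

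Other genes known from stellate cells were set beside the 10 as a list of 17. In CD+7KC relative to CD, 10 of the 17 were lower, against 50.7% of all genes, and 7 higher. Their median was -0.14, with none past 2-fold. The most abundant were Steap4, a metalloreductase, at 60.2 (CD), 36.7 (CD+7KC), 59.1 (WD) and 65.4 FPKM (WD+7KC), and the proteoglycan gene Bgn, at 46.0, 33.7, 54.7 and 52.3 FPKM in that order. Both were lowest in CD+7KC, as were 9 of the 14 genes of the list that averaged at least 1 FPKM, against 22.6% of all genes. Colec11, a collectin enriched in stellate cells, did not share that dip, at 33.2, 33.4, 36.8 and 31.9 FPKM. In WD relative to CD, 15 of the 17 were higher (median 0.36), against 50.9% of all genes. In WD+7KC relative to WD 13 were lower (median -0.21), against 49.8% of all genes, from Hand2 at -0.65 to Pth1r at 0.36. With equal sums the latter split was 9 higher to 8 lower, beside 73.0% higher among all genes. In WD+7KC relative to CD+7KC 12 were higher (median 0.37), against 50.2% of all genes. Cygb, the globin cytoglobin, alone passed 2-fold, at 1.05, against 8.01% of all genes above 2-fold. Cygb was named after its values were seen. Lrat, the enzyme that esterifies retinol for storage, was also chosen after its values were seen, and was listed at 4.46 (CD), 4.88 (CD+7KC), 7.52 (WD) and 6.36 FPKM (WD+7KC), so it was lowest in CD.

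The list of matrix output of activated stellate cells held 11 genes. Of these, 10 were lower in CD+7KC than in CD (median -0.53), against 50.7% of all genes. Past 2-fold were Timp1, an inhibitor of matrix metalloproteinases, at -1.44 and Col1a1, the alpha-1 chain of type I collagen, at -1.25, the latter named after its values were seen, against 2.91% of all genes below 2-fold. By quantitative PCR in ob/ob mice the authors found no significant change in fibrosis genes, and their probes included Col1a1. They also reported that the fibrosis area by Sirius Red staining did not differ among CD, CD+7KC, WD and WD+7KC. Timp1 was listed at 4.14 (CD), 1.46 (CD+7KC), 2.95 (WD) and 5.19 FPKM (WD+7KC). Col3a1, of type III collagen, was listed at 20.3, 12.5, 17.3 and 21.7 FPKM in that order, and Fn1, fibronectin, at 114, 82.3, 108 and 108. CD+7KC was thus lowest in each, as in 7 of the 9 genes of this list that averaged at least 1 FPKM. Of all genes at that level, 22.6% were lowest there. Which liver cells made these transcripts was not tested. In WD+7KC relative to WD 9 of the 11 were higher (median 0.32), against 50.2% of all genes. The 11 ran from Ctgf, a secreted matricellular protein, at -0.74 to Timp1 at 0.79, with none past 2-fold as deposited. In WD relative to CD the split was 5 higher to 6 lower (median -0.07), beside 50.9% higher among all genes. In WD+7KC relative to CD+7KC 10 were higher (median 0.81), 5 of them past 2-fold, against 50.2% and 8.01% of all genes. After rescaling 10 were higher and 7 past 2-fold, against 68.4% and 11.0% of all genes.

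**Figure D3:**
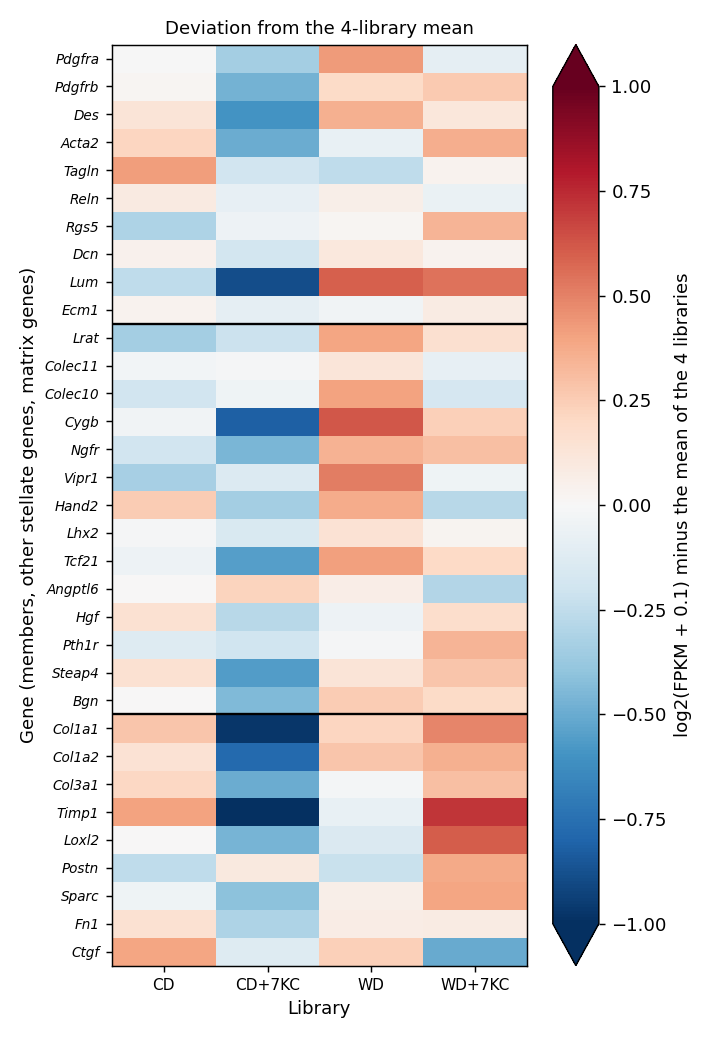
Heatmap of the deviation of log2(FPKM + 0.1) from the 4-library mean of each gene, with the 10 marker genes on top, then other stellate cell genes and matrix genes that averaged at least 1 FPKM. The CD+7KC column is blue for all 10 marker genes, in shades from pale (Rgs5, Reln, Ecm1) to dark (Lum), and is darkest for Timp1, Col1a1 and Lum.

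Contractile and smooth muscle genes did not share the low CD+7KC value as a list. Of 13 tested, 8 were higher in CD+7KC than in CD (median 0.13), against 49.3% of all genes. In WD+7KC relative to WD 9 were higher (median 0.09), or 12 after rescaling, against 50.2% and 73.0% of all genes. Cald1, the actin-binding caldesmon, was listed at 76.9 (CD), 70.1 (CD+7KC), 80.5 (WD) and 85.9 FPKM (WD+7KC), and the tropomyosin genes went in opposite directions by diet. Tpm1 was listed at 34.5, 31.8, 51.8 and 59.8 FPKM in that order, higher in both WD libraries as Lum was, and Tpm2 at 14.1, 19.5, 7.49 and 7.29, lower in both. The medians of the list in WD relative to CD and in WD+7KC relative to CD+7KC were 0.08 and 0.29, and Myocd, the smooth muscle coactivator myocardin, was listed at 0 in all libraries.

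The 7 pericyte genes, of which 4 averaged at least 1 FPKM, had medians of -0.07 in CD+7KC relative to CD and 0.12 in WD+7KC relative to WD. In the latter all 7 were higher, against 50.2% of all genes, or 73.0% after rescaling. The differences began at 0.02 for Anpep, and only Mcam, an adhesion molecule also made by endothelium, passed 2-fold, at 1.60. In WD relative to CD and in WD+7KC relative to CD+7KC their medians were 0.18 and 0.61. The 11 portal fibroblast genes had a median of 0.00 in CD+7KC relative to CD and of 0.36 in WD+7KC relative to WD. In the latter 8 were higher under either scaling, against 50.2% of all genes as deposited and 73.0% after rescaling. As deposited 4 were above 2-fold, against 6.21% of all genes. Most of those 4 averaged below 1 FPKM, a level that 7 of the 11 reached. The largest was Pi16 at 1.47, on values between 0.0445 and 0.322 FPKM. Dpt, dermatopontin, was listed at 6.66, 4.49, 7.08 and 4.76 FPKM in CD, CD+7KC, WD and WD+7KC, lower with 7KC under both diets. Their medians were 0.07 in WD relative to CD and 0.79 in WD+7KC relative to CD+7KC. Of the other small leucine-rich proteoglycans, a list that shares Bgn with the stellate list, all 7 tested were lower in CD+7KC than in CD as deposited and 5 after rescaling, with a median of -0.40. Of all genes, 50.7% and 42.4% were lower. The 7 differences began at -0.003, and only 3 genes of the list averaged at least 1 FPKM. In WD+7KC relative to WD 5 of 6 tested were lower (median -0.17), or 3 of 6 after rescaling, against 49.8% and 27.0% of all genes. Prelp was listed at 13.2, 10.5, 18 and 15.4 FPKM in the order CD, CD+7KC, WD and WD+7KC, which is the order of Lum's levels, with WD highest and CD+7KC lowest. The medians of this list in WD relative to CD and in WD+7KC relative to CD+7KC were -0.21 and -0.27.

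Markers of other liver cells differed between the same libraries. Of all genes, 49.3% were higher and 50.7% lower in CD+7KC than in CD. In WD+7KC relative to WD 50.2% were higher, 6.21% were above 2-fold and 49.8% were lower, or 27.0% lower after rescaling. All 9 macrophage markers were higher in CD+7KC than in CD (median 0.87) and in WD+7KC than in WD (median 0.93), with summed FPKM of 152 (CD), 242 (CD+7KC), 255 (WD) and 511 (WD+7KC) and no marker at 0. Of the 8 sinusoidal endothelial markers, 7 were higher in CD+7KC than in CD (median 0.42) and all 8 passed 2-fold in WD+7KC relative to WD (median 1.55), with sums of 76.4, 114, 62.3 and 179 FPKM. Of the 8 hepatocyte markers, 7 were lower in CD+7KC than in CD (median -0.27) and all 8 were lower in WD+7KC than in WD (median -0.38), or 5 after rescaling, with sums of 61024, 49601, 58753 and 45633 FPKM. The sum of the 10 stellate genes was thus below its CD value in CD+7KC, as that of the hepatocyte markers was, while the macrophage and endothelial sums were above theirs. Under WD the sum of the 10 was 238 FPKM without and 239 with 7KC, whereas the hepatocyte sum was lower with 7KC. These sums are of deposited values, and total FPKM was 699534 in WD and 602059 in WD+7KC. Dcn and Ecm1 made up most of the sum of the 10, and hepatocytes also make Ecm1. Ductular cell markers were lower in CD+7KC than in CD in 6 of 6, with a median of -0.44. Only 1 of the 6 averaged at least 1 FPKM, and Cftr was at 0.0149 FPKM in CD and at 0 in 3 of the libraries. The ductular sums of 102, 46.4, 126 and 186 FPKM were mostly Spp1, osteopontin, at 98.7, 43.7, 124 and 183 FPKM. In WD relative to CD 5 of these 6 markers were lower (median -0.25), against 49.0% of all genes, with Cftr near 0 among the 5. In WD+7KC relative to WD 4 of 5 tested were higher (median 0.29), against 50.2% of all genes. Mesothelial markers summed to at most 1.84 FPKM and skeletal muscle markers to at most 0.248 FPKM in any library, with Ckm and Myh4 at 0 in all. The fat cell markers differed among themselves. Fabp4, a fatty acid-binding protein, had the highest mean of the list and was listed at 83.5 (CD), 66.5 (CD+7KC), 104 (WD) and 143 FPKM (WD+7KC), highest in WD+7KC. Cfd, by contrast, went from 220 FPKM in CD and 63.2 in CD+7KC to 1.47 in WD and 0.115 in WD+7KC. Adipoq was near 0 throughout, at 0.0885 FPKM in CD, 0.0882 in CD+7KC and 0 in both WD libraries, and Plin1 was at 0 in all. The part of any of these cell types in the values of the 10 genes was not tested.

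**Figure D4:**
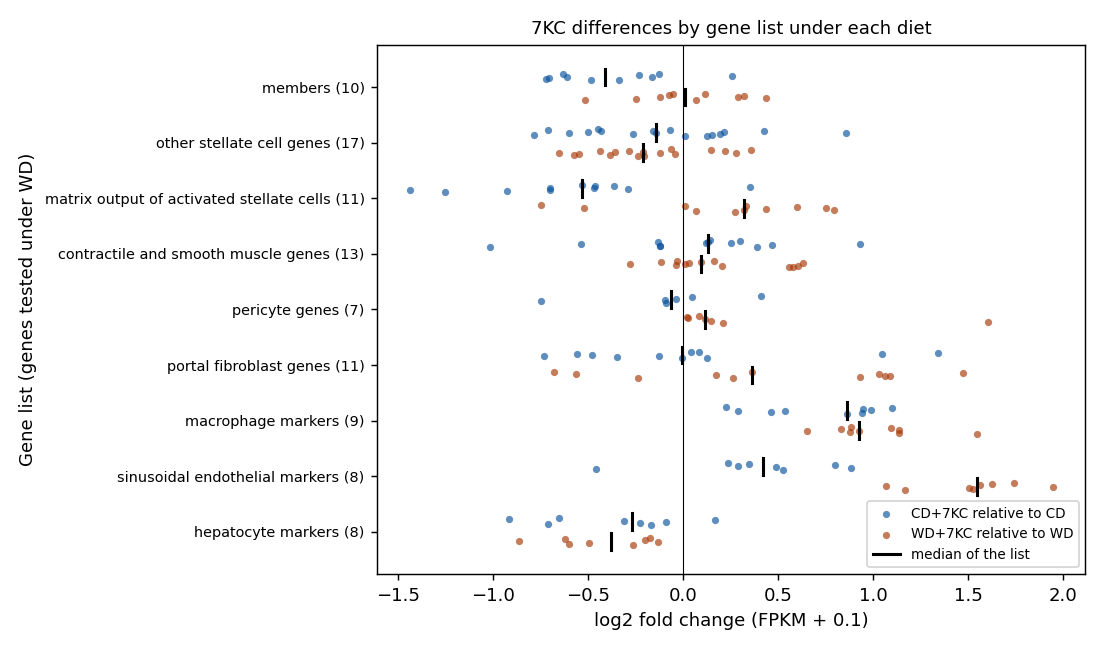
Log2 fold changes of FPKM + 0.1 for 7KC under CD (blue) and under WD (brown), 1 point per gene, by gene list with the number of genes tested under WD, and a black bar at each median. The 10 marker genes have medians of -0.41 under CD and 0.01 under WD, whereas the macrophage markers lie right of 0 under both diets and the sinusoidal endothelial markers beyond 1 under WD.

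For each of the 10 genes the genes of most similar profile were sought, by the Euclidean distance between deviations of log2(FPKM + 0.1) from the 4-library mean, among 10685 genes that averaged at least 1 FPKM. With 4 points a profile is easily matched: 1733 genes lay within a distance of 0.2 of Reln, 1342 of Ecm1 and 1107 of Dcn, whose profiles were nearly flat, but only 11 of Acta2, 10 of Lum and 15 of Des. The nearest gene to Acta2 was Col3a1, at a distance of 0.08, followed by Plac8 at 0.10. Lum was nearest to Hist1h1c, a linker histone, at 0.06 and to Pdzk1ip1 at 0.11, and Des to Abca5 at 0.05 and to Cda at 0.05. The nearest genes to Pdgfrb were Ap5s1 and Ccdc85b, to Pdgfra Tsr2 and Rrp15, to Tagln Zfand2a and Pp2d1, and to Rgs5 Pitpnc1 and Limd2. Those to Reln were Mcu and Cmpk1, to Dcn Khsrp and Eif4a1, and to Ecm1 Ttc17 and Ndst2. None of these 20 neighbours was another of the 10 marker genes.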

How the data were processed

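RNA of whole liver was measured in 1 library per group, 4 in all. From stranded mRNA libraries and single-end reads, the authors mapped to mm10 with TopHat2 2.0.13, Bowtie2 2.2.3 and SAMtools 0.1.19, and deposited 1 FPKM value per gene symbol from Cufflinks 2.2.1 (versions per the submitters' processing notes). The gene annotation and the Cufflinks options are not given in the sources used here. Because FPKM values hold no counts and groups hold 1 library, no count test or p-value was computed.

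The 10 genes and the 14 gene lists set beside them were chosen with earlier results of these data known. Log2 fold changes used a pseudocount of 0.1 FPKM over genes above 0 in at least 1 of the 2 libraries, and genes past 2-fold were counted. The rule for names covered the 10 genes, the 2 nearest profiles of each and, of each list, up to 3 genes of highest mean FPKM and the extremes in WD+7KC relative to WD, and not all of these are printed. Named outside it, after their values were seen, were list genes at 0 in some or all libraries (Cftr, Ckm, Epyc, Kera, Myh4, Myocd and Plin1), Pcsk7 for its overlap with Tagln, and Col1a1, Cygb and Lrat.

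Read depth was estimated from the steps of low values, over 13650 genes for which RefSeq lists a single mRNA, taking the length minus 200 bases, and 72.5% to 74.0% of the low values lay within 0.1 of a whole read. Intervals are exact (Clopper-Pearson) at 95%, from the shortest RefSeq mRNA. They exist for all 10 genes, and their background covers genes with a single mRNA that averaged at least 1 FPKM. The code was tested on simulated data. Alternatives were a pseudocount of 1 or none, a filter of 1 FPKM, equal sums, median-ratio scaling and a 1.5-fold threshold. Coordinates came from GENCODE vM21 (GRCm38) and promoters from RefSeq, with no promoter used here for Pdgfrb, Tagln, Dcn and Lum. Muc16 of the mesothelial list had no value and was left out. Another gene of the stellate list is not reported here, and the counts of that list are without it. The tools were scipy 1.17.1, pandas 2.3.3, numpy 2.4.6 and matplotlib 3.10.9 under Python 3.11.15.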

Additional observations from a re-analysis of the deposited data

Results flagged for a closer look

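For 4 of the 10 marker genes the library with 7KC was below its control under CD and above it under WD, as for 21.8% of the 10686 genes that averaged at least 1 FPKM. Opposite directions of either kind occurred in 46.3% of those genes. With 1 library per group, the difference between the diets was not tested. On the log2(FPKM + 0.1) scale, the 7KC difference under WD minus that under CD was 1.14 for Acta2, from -0.71 under CD to 0.44 under WD. For Tagln it was 0.90, from -0.61 to 0.29, and for Pdgfrb 0.56, from -0.49 to 0.07. For Ecm1 it was 0.25, from -0.13 to 0.12. As deposited, the 95% counting interval under WD held 0 for each of the 4 genes. Both contractile genes of myofibroblasts are among the 4, whereas Des differed by 0.48 with the same direction under both diets. After rescaling to equal sums the directions were opposite for 7 of the 10, with Reln, Dcn and Lum added, and all 7 were lower under CD and higher under WD, as were 32.7% of all genes at that level. That rescaling moves every gene of a library alike. The difference between the diets was above 0 for 9 of the 10 genes, Pdgfra being the exception at -0.18, against 47.2% of all genes at that level as deposited and 67.5% with equal sums.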

How the results depend on the processing

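A pseudocount of 1, no pseudocount, a filter of 1 FPKM and median-ratio scaling changed the direction of none of the 10 genes in the 4 comparisons. Equal sums changed that of 3 in WD+7KC relative to WD (Reln, Dcn and Lum) and of 1 in WD relative to CD (Reln), and moved Dcn and Ecm1 by more than their counting error in WD+7KC relative to WD (to 0.14 and 0.33) and to CD+7KC (to 0.43 and 0.38). At a 1.5-fold threshold 4 of the 10 genes were below in CD+7KC relative to CD, 1 was above and 1 below in WD relative to CD, and 4 were above in WD+7KC relative to CD+7KC, where equal sums gave 2 above at 2-fold. The counts of all genes changed with the treatment of low values, as fewer low genes can pass. In WD+7KC relative to WD, 978 genes above and 440 below became 140 and 49 with a pseudocount of 1, 414 and 107 with the filter, and 2230 and 1080 at 1.5-fold. In CD+7KC relative to CD, 603 and 456 became 65 and 48, 170 and 117, and 1627 and 1115 in the same order. In WD relative to CD, 828 and 683 became 150 and 137, 330 and 272, and 2099 and 1679. In WD+7KC relative to CD+7KC, 1274 and 733 became 316 and 225, 692 and 351, and 2784 and 1813. No paired analysis was possible because each group had 1 library. Depth limits Des and Acta2 most, at an estimated 30.5 and 38.5 reads in CD+7KC. For Rgs5 the estimate depends on the mRNA taken. Across libraries it was 39.7 to 69.3 reads for the shortest, used for its intervals, and 296 to 516 for the longest.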
